A study of Mus musculus with 6 samples.

Results

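Kidney macrophages were examined in droplet single-cell libraries of mouse kidney that had been dissociated either by a conventional digestion or on a microfluidic tissue processing platform. A macrophage was taken as a kept kidney cell with at least 5 unique molecular identifiers (UMIs, each standing for 1 captured transcript) of C1qa, C1qb and C1qc together, at most 1 UMI of Pecam1, none of Cd3d, Cd3e, Cd3g or Cd79a, and under 10 UMIs of S100a8 and S100a9 together. Kept kidney cells had 200 to 3000 genes and at most 50% mitochondrial UMIs. By this rule 2384 of 24212 kept kidney cells were macrophages, from 34034 deposited kidney cells and 58561 cells in the whole series. The cells were thus chosen by their measured levels of these genes, which are given below as a description only.

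The series held 6 libraries, 3 of kidney from C57BL/6 mice of 12 weeks and 3 of mammary tumor from MMTV-PyMT mice of 10 weeks, a line in which a viral oncogene under a mammary promoter drives tumors. In each tissue 1 library came from a control sample that was minced, digested with type I collagenase for 60 min, and then pipetted, vortexed and strained. The other libraries came from tissue run through the digestion device with the same enzyme and then once through an integrated dissociation and filter device, where cells were eluted after 15 min and the tissue left behind was processed on to 60 min. All suspensions were treated with DNase and a red cell lysis buffer and sorted for viable cells, so the 3 conditions share these steps. Each condition had 1 library per tissue, so no difference below has a replicate check and none was tested. Where 3 values stand in a row, they are in the order control, platform 15 min and platform 60 min. The intervals given cover counting error only. Where 2 comparisons use the same control library, their values stand side by side and are not independent.

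Macrophages are resident phagocytes that in the kidney lie between the tubules, take up debris and present antigen on MHC class II molecules. They make the C1q subunits of complement, depend on the growth factor receptor encoded by Csf1r, and carry receptors for microbial and damage signals. When these receptors are engaged, transcription factors of the NF-kB, AP-1 and IRF families switch on chemokines, cytokines and type I interferon within a short time, and interferon in turn induces a set of antiviral genes.

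The platform's 15 min interval gave few macrophages. In the control 809 of 5886 kept cells were macrophages (13.7%, exact Clopper-Pearson 95% interval 12.9 to 14.7). After 15 min on the platform the number was 132 of 8390 (1.57%, 1.32 to 1.86). After 60 min it was 1443 of 9936 (14.5%, 13.8 to 15.2). The 15 min share thus lay far below both others, and the intervals of the control and the 60 min platform overlapped. In the mammary tumor the same rule took 15.7%, 16.0% and 23.2% of kept cells, so the low share at 15 min was seen in the kidney and not in the tumor. The kidney share at 15 min stayed between 1.20% and 2.63% under every other cell filter tried. The kept cells of the 15 min kidney library included 7273 that passed a proximal tubule rule, against 3288 in the control and 3191 at 60 min, and a share depends on what else was released.

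**Figure D1:**
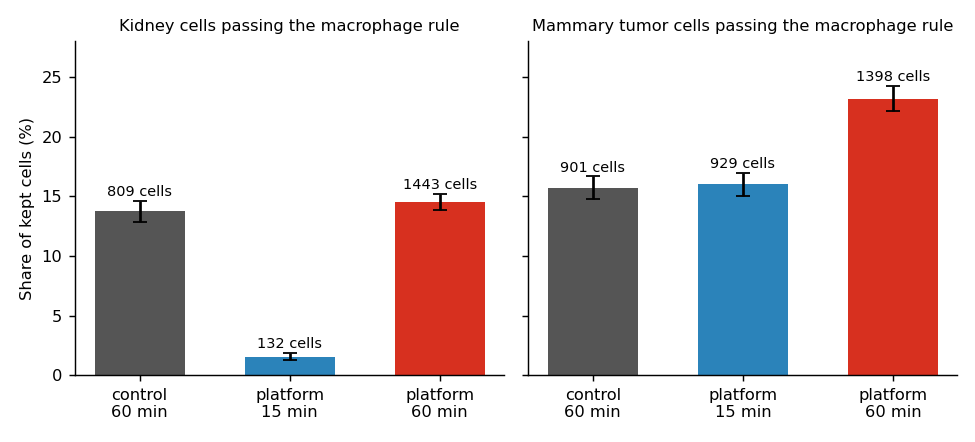
Share of kept cells that passed the macrophage rule, in percent, in each of the 3 kidney libraries (left) and 3 mammary tumor libraries (right); bars are single libraries, error bars exact binomial 95% intervals for counting error, and numbers above them the cells. The kidney bar for 15 min stands at 1.57%, while the other 2 kidney bars stand at 13.7% and 14.5%.

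The cells were alike in depth. Median UMIs per macrophage were 6879, 5459.5 and 6141, and median detected genes 1809, 1699.5 and 1666. The median mitochondrial share was 4.85%, 7.88% and 5.04%, highest at 15 min. Summed over macrophages the libraries held 5519800, 751127 and 9012204 UMIs, so values at 15 min carry the widest counting error. Of the cell barcodes of the macrophages, 1 was shared by the control and the 60 min library and none by the other pairs. No doublet caller was run.

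The C1q sum placed the cells well clear of its limit. Its median was 89, 88 and 65 UMIs per macrophage, the highest 292, 203 and 262, and only 12, 8 and 49 cells held 5 to 9 UMIs. Cells just inside the limit, with 5 to 7 C1q UMIs, numbered 44 and showed a Csf1r UMI in 47.7% of cells, against 20.4% of 147 cells just outside with 2 to 4 UMIs and 90.0% of all macrophages. The condition on Pecam1, a gene of endothelium, left out 1, 1 and 49 cells with enough C1q in the control, 15 min and 60 min libraries.

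Markers that the rule did not use fitted the label. Levels are given as CPM, the UMIs of a gene per 1000000 UMIs of the macrophages of a library. Csf1r stood at 526, 560 and 514 CPM, and Adgre1, which encodes the F4/80 antigen, at 309, 302 and 304. Cd14, a co-receptor for bacterial lipopolysaccharide, was found in 91.6%, 84.8% and 87.7% of cells, with levels of 1373, 772 and 1254 CPM. Its share in proximal tubule cells, which should lack it, was 0.760%, 0.495% and 1.97%. Of 20 identity genes 19 were measured above the low filter, a mean of 20 CPM over the 3 libraries. None differed by 2-fold between any platform library and the control. Of all genes above the filter 1.13% were 2-fold higher and 0.111% lower at 60 min, and 2.33% and 3.57% at 15 min. A list of this length would thus hold few such genes in any case. Genes that mark perivascular and other resident macrophages in many organs were uneven. Of 14 listed 5 were above the filter, none of them past 2-fold against the control, and the list summed to 610, 523 and 787 CPM. Mrc1, the mannose receptor, stood at 155, 120 and 214 CPM and Pf4 at 263, 222 and 294. Vsig4 had no UMI in any library, and Lyve1 reached at most 1.33 CPM and Timd4 0.777.

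Antigen presentation genes were within 2-fold across conditions. Cd74 stood at 41064, 45506 and 35411 CPM in the control, 15 min and 60 min libraries. H2-Ab1, a class II beta chain, stood at 15972, 16387 and 14532. None of 8 class II genes, 9 class I genes, 24 lysosome genes or 7 complement and Fc receptor genes above the filter was past 2-fold in either platform library against the control. C1qa itself, with the rule in mind, stood at 5144, 5699 and 4333 CPM. Of all genes above the filter 1.13% were 2-fold higher and 0.111% lower at 60 min, and 2.33% and 3.57% at 15 min. Lists of this size would thus hold few such genes in any case, and the counts do not set these genes apart.

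Transcripts of other cell types were also present in the macrophages, and they differed by library. A list of 12 proximal tubule genes summed to 2227, 11549 and 2791 CPM, with all 12 detected in each library. Kap, an abundant proximal tubule transcript, alone stood at 1061, 7795 and 1313. Proximal tubule genes were 10 of the 105 genes at least 2-fold higher at 15 min than in the control. The erythroid list of 4 globin genes summed to 1.63, 6293 and 1246 CPM, nearly all from 1 cell at 15 min with 4722 globin UMIs and 6 cells at 60 min with 20 or more. Without those cells the log2 ratio of Hbb-bs at 60 min to the control was 0.27 in place of 5.92. Distal tubule genes summed to 37.1, 42.6 and 181 CPM and endothelial genes to 15.2, 18.6 and 101, both highest at 60 min. The T cell markers Cd3d, Cd3e and Cd3g and the B cell marker Cd79a were at 0 by the rule, while Ighm and Cd79b kept the B cell list at 263, 351 and 236. Dendritic cell genes summed to 154, 182 and 149, and the granulocyte list to 18.8, 5.33 and 28.3. The part of these transcripts in the differences below was not tested, except where a value without the affected cells is given.

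Gene levels were compared on the scale log2 of CPM plus 10, over 4504 genes above the filter, and a gene was counted where the ratio reached 2-fold. In macrophages from the platform at 60 min 51 genes (1.13%) were higher than in the control and 5 (0.111%) were lower. At 15 min 105 genes (2.33%) were higher than in the control and 161 (3.57%) were lower. Without the macrophages that held 1% or more proximal tubule UMIs, the number higher at 15 min was 23 and the number lower 148. Scaling by factors from the trimmed mean of M values gave 76 higher and 229 lower at 15 min, and moved the median log2 ratio of all genes from 0.07 to -0.14. From 15 min to 60 min on the platform 223 genes (4.95%) were higher and 95 (2.11%) lower, or 297 and 61 with trimmed mean factors, and 228 and 173 when mitochondrial, ribosomal protein and proximal tubule genes were left out of the totals. The higher genes at 60 min included Ifnb1 and members of the interferon and immediate early lists, and the lower genes at 15 min included chemokines, cytokines, heat shock genes and their regulators.

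**Figure D2:**
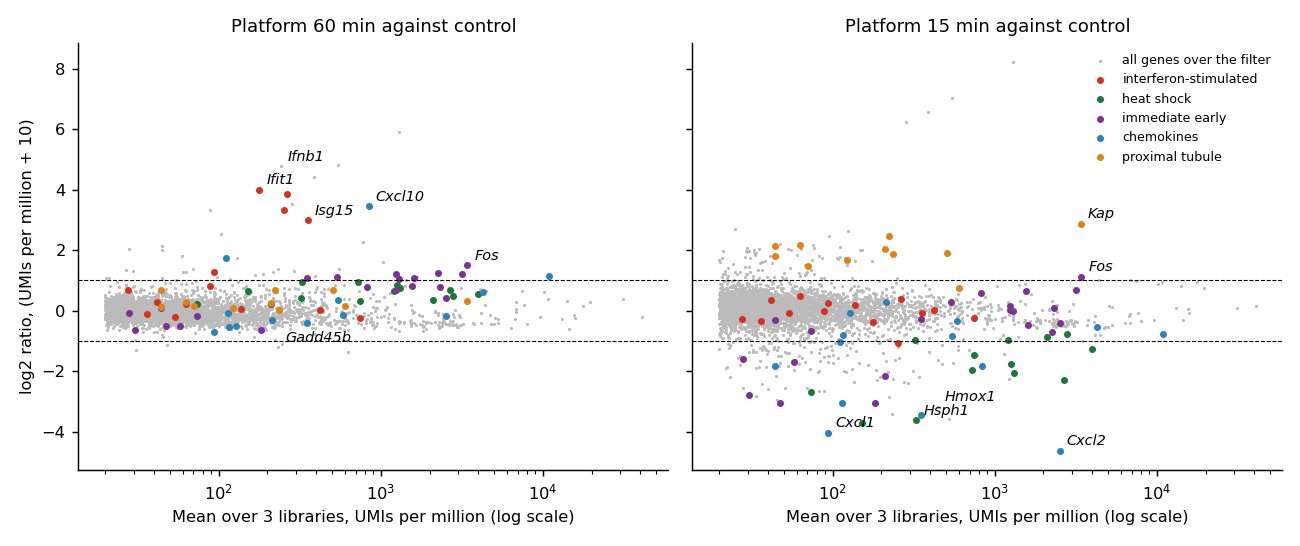
Log2 ratio of CPM plus 10 in macrophages against the mean level over the 3 kidney libraries (log scale) for 4504 genes, platform 60 min against control (left) and platform 15 min against control (right); points are genes, colours the lists named in the legend, and dashed lines mark 2-fold. Among the labelled genes Ifnb1 stands highest on the left, at 4.78, with Cxcl10 at 3.45, and Cxcl2 stands lowest on the right, at -4.63.

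Type I interferon set the 60 min platform library apart. Ifnb1, which encodes interferon beta, stood at 16.1, 2.66 and 706 CPM, from 89, 2 and 6359 UMIs. It passed the filter only through its 60 min value. It was 43.8-fold higher at 60 min than in the control (95% counting interval 35.5 to 54.6). A UMI was found in 7, 1 and 507 cells, which is 0.865%, 0.758% and 35.1% of macrophages. In the control 1 cell held 91.0% of all Ifnb1 UMIs, while at 60 min the richest cell held 1.38%. After each cell was thinned to 1000 UMIs the shares were 0.249%, 0% and 23.6%. In proximal tubule cells, which give the background of free transcripts at a median of 5824 UMIs, 0.721% of cells at 60 min held an Ifnb1 UMI. Ifnb1 is a gene without introns at chr4:88522025-88522774 on the minus strand in GRCm38.

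Genes induced by interferon and by its upstream factors were higher too. Cxcl10, which encodes a chemokine for T cells, stood at 199, 49.3 and 2275 CPM, 11.4-fold above the control at 60 min (10.8 to 12.2). It was found in 15.1%, 9.09% and 56.3% of macrophages. Ifit1, an antiviral RNA-binding protein, stood at 21.9, 14.6 and 499 CPM (22.8-fold at 60 min, 19.0 to 27.5). Ifit2 of the same family stood at 38.6, 53.3 and 700. Isg15, a ubiquitin-like protein, stood at 101, 95.9 and 867, and Rsad2, which encodes viperin, at 59.4, 22.6 and 678. For these 6 genes the 60 min value lay above both other libraries and was 8.56-fold or more over the control.

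The interferon list was raised unevenly at 60 min. Of 14 listed genes above the filter 5 were past 2-fold higher at 60 min (Ifit1, Ifit2, Ifit3, Isg15 and Rsad2), against 1.13% of all genes. None was past 2-fold lower. By any amount 11 of the 14 were above the control and 3 below it, against 2024 above and 2480 below over all genes. The median log2 ratio was 0.48 against -0.03 over all genes. Ifit3 stood at 57.4, 69.2 and 155 CPM. Irf7, a factor that interferon induces, stood at 51.8, 75.9 and 62.4. Mx1, an antiviral GTPase, stood at 22.8, 17.3 and 42.9. Bst2 stood at 418, 419 and 427 and Ifitm3 at 830, 691 and 702, so these interferon-inducible genes stayed within 2-fold. At 15 min 1 of the 14 genes was lower than the control, Rsad2, against 3.57% of all genes.

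Promoter sequences of 5 of the 6 genes just named are shown because 11 of the 40 genes with a listed promoter among the 51 higher at 60 min (27.5%) held the letters AAANNGAAA, a core shared by many interferon-regulatory and interferon-response elements, on either strand in the listed window of 250 bases before to 50 bases after the start. Of all 27025 genes with a promoter in the RefSeq table of GRCm38.p6 12.1% held it, and of the genes above the filter 11.2%. Each run below is the 250 bases before the annotated start, 5′ to 3′ on the strand of the gene, with matches in capitals in either orientation. A match describes letters only. The 2 listed promoters of Ifit2 held none and are not shown. In Ifnb1 the match began 140 bases before the start and in Cxcl10 212 bases before it, while the promoters of Ifit1 and Rsad2 held 2 matches each and that of Isg15 3 overlapping ones.
Ifnb1 promoter, chr4:88522795-88523044, minus strand: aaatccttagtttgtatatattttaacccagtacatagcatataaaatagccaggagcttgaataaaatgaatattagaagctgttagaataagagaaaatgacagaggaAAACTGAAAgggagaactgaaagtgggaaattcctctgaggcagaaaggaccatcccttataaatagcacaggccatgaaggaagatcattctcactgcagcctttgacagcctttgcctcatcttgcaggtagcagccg
Cxcl10 promoter, chr5:92348890-92349139, minus strand: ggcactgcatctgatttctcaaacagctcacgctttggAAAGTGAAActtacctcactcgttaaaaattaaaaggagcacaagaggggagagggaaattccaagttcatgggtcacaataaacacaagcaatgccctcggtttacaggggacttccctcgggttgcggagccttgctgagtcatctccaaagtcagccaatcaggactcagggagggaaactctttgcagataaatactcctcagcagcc
Ifit1 promoter, chr19:34640639-34640888, plus strand: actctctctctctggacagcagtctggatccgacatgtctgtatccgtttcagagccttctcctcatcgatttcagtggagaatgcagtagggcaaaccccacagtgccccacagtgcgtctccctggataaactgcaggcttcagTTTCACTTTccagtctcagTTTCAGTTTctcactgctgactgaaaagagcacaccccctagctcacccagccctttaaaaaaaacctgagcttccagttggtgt
Isg15 promoter, chr4:156200819-156201068, minus strand: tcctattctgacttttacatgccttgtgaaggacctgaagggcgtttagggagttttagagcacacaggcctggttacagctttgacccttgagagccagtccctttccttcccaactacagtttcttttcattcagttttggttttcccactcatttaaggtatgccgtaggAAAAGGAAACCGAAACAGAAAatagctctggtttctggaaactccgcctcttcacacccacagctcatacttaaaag
Rsad2 promoter, chr12:26456453-26456702, minus strand: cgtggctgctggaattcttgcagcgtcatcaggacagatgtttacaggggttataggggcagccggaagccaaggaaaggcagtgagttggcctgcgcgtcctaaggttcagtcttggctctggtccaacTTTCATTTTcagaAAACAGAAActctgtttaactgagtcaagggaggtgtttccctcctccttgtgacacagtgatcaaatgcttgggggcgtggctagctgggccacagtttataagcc

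The other genes of the 11 with a match were Ifih1, Ifit3, Ifit3b, Oasl1, Ppp1r15a and Trim26. Ifih1, which encodes the RNA sensor MDA5, stood at 35.3, 22.6 and 251 CPM in the control, 15 min and 60 min libraries, and was named after its value was seen. Ppp1r15a, which encodes a regulatory subunit of the phosphatase for the translation factor eIF2 alpha, stood at 369, 128 and 1823. It was 4.94-fold higher at 60 min than in the control (4.71 to 5.17) and 2.89-fold lower at 15 min (2.35 to 3.58), so the 2 platform intervals lay on either side of the control.

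Single macrophages at 60 min were uneven in these genes. Of 1430 macrophages thinned to 1000 UMIs 337 held an Ifnb1 UMI, and Cxcl10 was found in 80.1% of those against 32.9% of the 1093 cells without Ifnb1. For Ifit1 the shares were 46.0% and 8.78%, and for Tnf 76.3% and 30.6%. Over the 1430 cells, which share 1 library and 1 thinned depth, the Spearman correlation of Ifnb1 was 0.44 with Cxcl10, 0.49 with Ppp1r15a, 0.46 with Ccl4, 0.14 with Cxcl2 and 0.10 with Hsph1. Ifnb1 thus went with the interferon genes, Tnf and Ccl4 in the same cells and little with Cxcl2 or Hsph1. Cxcl10 reached 146 UMIs in 1 cell at 60 min, where its median was 2, and the median was 0 in both other libraries.

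**Figure D3:**
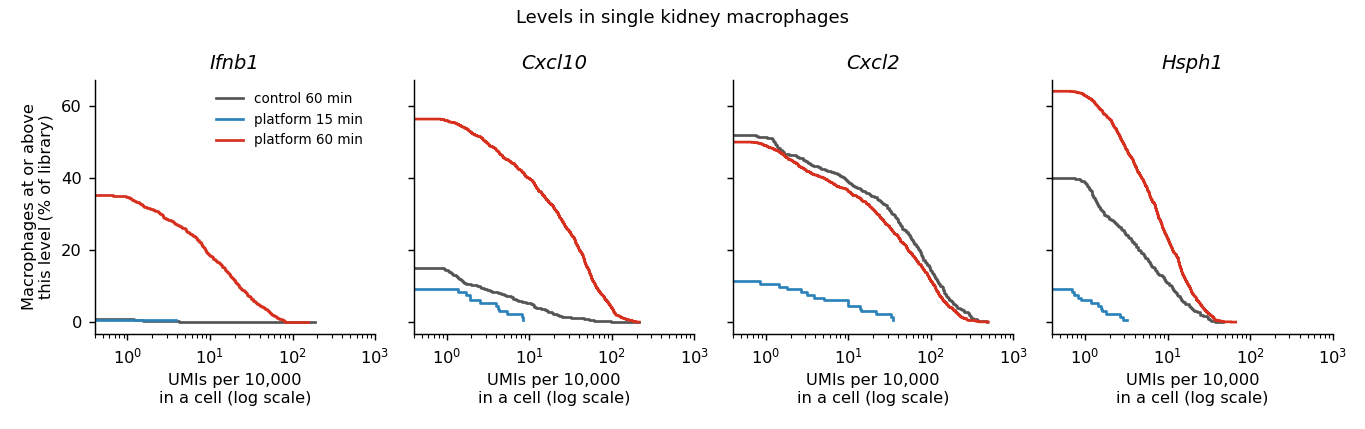
Percent of the macrophages of each kidney library at or above a given level of Ifnb1, Cxcl10, Cxcl2 or Hsph1, with the level in UMIs per 10000 UMIs of a cell on a log scale; lines are libraries. The curve of the 60 min platform starts at 35.1% for Ifnb1 and 56.3% for Cxcl10, and the 15 min curve lies lowest for Cxcl2, from 11.4%, and for Hsph1, from 9.09%.

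Chemokines and cytokines moved in 2 ways. At 60 min 3 of 14 chemokines were higher than in the control (Cxcl10, Ccl4 and Ccl5) and 1 of 9 genes of the cytokine list was (Tnf), with none lower. Of all genes 1.13% were that much higher. Ccl4, a chemokine for monocytes and T cells, stood at 8688, 5032 and 19172 CPM. Ccl5, a chemokine for T cells, stood at 65.2, 26.6 and 242. Tnf stood at 421, 118 and 1111, 2.64-fold higher at 60 min than in the control (2.52 to 2.76) and 3.55-fold lower at 15 min (2.87 to 4.44). Summed over all macrophages, Ccl4, Ccl5 and Tnf were therefore lowest at 15 min and highest at 60 min. For Ccl4 this order did not hold within sub-clusters 2 and 3 of the cells, described below. For Ccl4 and Tnf it also did not hold within sub-clusters 6 and 7, which had 15 and 2 cells at 15 min. Il1b, the precursor of interleukin 1 beta, stood at 3842, 1898 and 4694 and did not reach 2-fold at 60 min.

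At 15 min 7 of 14 chemokines and 7 of 9 genes of the cytokine list were past 2-fold lower than in the control and none was higher. The cytokine list also held Ptgs2 and Nlrp3, which do not encode cytokines. Of all genes 3.57% were that much lower. The medians of log2 ratios were -0.95 and -1.75, against 0.07 over all genes. Cxcl2, a neutrophil chemokine, had the lowest log2 ratio of all genes above the filter, with 3906, 148 and 3478 CPM. It was 26.4-fold lower at 15 min (21.9 to 32.1). It was found in 51.8%, 11.4% and 49.9% of macrophages. Cxcl1, of the same family, stood at 176, 1.33 and 104, where the 15 min value was a single UMI and the ratio to the control 132 (23.7 to 5230). Ccl2, which draws monocytes through CCR2, stood at 574, 43.9 and 429 (13.1-fold lower at 15 min, 9.29 to 19.0). The other chemokines lower at 15 min were Ccl5, Ccl7, Ccl8 and Cxcl10.

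In the cytokine list Il1a, the precursor of interleukin 1 alpha, stood at 48.4 CPM in the control, at 0 at 15 min and at 35.6 at 60 min. It was at least 12.1-fold lower at 15 min when the limit of 3 UMIs over the library is used. Ptgs2, the inducible prostaglandin synthase, stood at 77.2, 1.33 and 57.5, with 1 UMI at 15 min. Tnfsf9 stood at 113, 9.32 and 142, and Nlrp3, the sensor of an inflammasome, at 201, 30.6 and 173. Osm, Tnf and Il1b were the other 3. For Il1a, Ptgs2 and Nlrp3 the control and the 60 min platform lay near each other and the 15 min library apart from both.

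The promoters of Cxcl1 and Cxcl2 are shown because both held one spelling of an NF-kB site (GGGA and TTTCC with any base between them, either strand). It was found in 0.466% of all 27025 genes with a listed promoter. Among the genes lower at 15 min it was found in 3 of the 130 with a promoter (2.31%). The match, in capitals, began 71 bases before the start in Cxcl1 and 97 bases before it in Cxcl2.
Cxcl1 promoter, chr5:90890995-90891244, plus strand: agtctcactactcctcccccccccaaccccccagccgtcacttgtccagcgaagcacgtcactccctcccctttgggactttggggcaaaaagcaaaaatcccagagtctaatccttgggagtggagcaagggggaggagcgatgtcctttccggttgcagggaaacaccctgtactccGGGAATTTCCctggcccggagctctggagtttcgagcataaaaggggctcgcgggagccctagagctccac
Cxcl2 promoter, chr5:90903649-90903898, plus strand: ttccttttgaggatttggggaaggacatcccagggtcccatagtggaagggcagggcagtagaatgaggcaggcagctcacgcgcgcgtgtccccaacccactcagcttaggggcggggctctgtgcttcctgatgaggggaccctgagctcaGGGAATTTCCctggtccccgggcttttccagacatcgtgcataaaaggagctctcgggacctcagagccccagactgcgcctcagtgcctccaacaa

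Genes of NF-kB signalling and its feedback were often lower at 15 min. Of 25 above the filter 15 were past 2-fold lower than in the control, none was higher and the median log2 ratio was -1.31. Of all genes above the filter 3.57% were that much lower at 15 min and 2.33% higher. Tnfaip3, which encodes the inhibitor A20, stood at 157, 24.0 and 379 CPM. Nfkbia, the inhibitor that holds NF-kB in the cytoplasm, stood at 1196, 438 and 1788, and Rel, a subunit, at 413, 95.9 and 432. Cd83 stood at 1547, 312 and 1793. At 60 min 4 of the 25 were higher than in the control (Ppp1r15a, Tnfaip3, Dusp1 and Zfp36) and 1 was lower, against 1.13% and 0.111% of all genes. The lower one was Gadd45b, at 467, 34.6 and 195. The list was wide and also held genes with other roles, among them Ppp1r15a, described above, Dusp1 and Gadd45b.

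Immediate early genes were mixed at 15 min. Fos, a subunit of AP-1, stood at 1710, 3736 and 4844 CPM, so both platform libraries lay above the control, by 2.18-fold (2.09 to 2.28) and 2.83-fold (2.77 to 2.90). Jun, its partner, stood at 1942, 3142 and 4466, and Egr1 at 841, 925 and 1974. Within each library Fos and Jun went together over thinned macrophages, with Spearman correlations of 0.51, 0.71 and 0.53 over 802, 130 and 1430 cells. At 15 min 1 of 21 listed genes was past 2-fold higher than in the control (Fos) and 6 were lower, against 2.33% and 3.57% of all genes. Those 6 were Egr3, Fosl2, Ier3, Maff, Nr4a1 and Nr4a3. Maff stood at 84.1, 1.33 and 56.0, and Nr4a3, a nuclear receptor, at 58.5, 0 and 33.6. At 60 min 8 of the 21 were higher and none lower, against 1.13% and 0.111% of all genes. Among them were Fos, Jun, Egr1, Atf3 at 1691, 1033 and 4039, and Klf2 at 1268, 916 and 2657. Of 12 stress response genes that the study displayed singly, 5 were higher and 1 lower at 60 min, and 1 was higher and 3 lower at 15 min, against the control.

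Summed over all macrophages, heat shock genes were low at 15 min and highest at 60 min. Of 13 genes 9 were past 2-fold lower at 15 min than in the control, against 3.57% of all genes, with a median log2 ratio of -1.77. Hsph1, a chaperone related to HSP70, stood at 329, 17.3 and 641 CPM, 19.0-fold lower at 15 min (11.1 to 35.7). Hsp90aa1, the inducible HSP90, stood at 2858, 575 and 4573. Hspa1a, the inducible HSP70, stood at 4157, 1719 and 6102, and Dnajb1, its partner, at 688, 169 and 1320. Hspb1, a small heat shock protein, stood at 174, 3.99 and 276, where the 15 min value came from 3 UMIs in 1 cell. At 60 min the median log2 ratio to the control was 0.64, but none of the 13 reached 2-fold. The order of the control and 60 min did not hold in every sub-cluster described below. In sub-cluster 1 Hsph1 stood at 1317 in the control and 960 at 60 min, and Hspa1a at 10884 and 6912. In sub-cluster 3 Hsph1 stood at 229 and 502, and Hspa1a at 4544 and 6339. A spelling of the heat shock element was GAA, TTC and GAA, each pair apart by 2 bases of any kind, on either strand. It was found in 3 of the 10 listed genes with a promoter and in 0.662% of all genes with one. The 3 were Hsph1, Hspd1 and Hspe1. Hspd1 and Hspe1 overlap on opposite strands at their starts, so the same site may be counted for both. Hspa1a, Hspa1b, Hspb1, Dnajb1 and Dnaja1 did not hold it.

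A list of iron, heme, metal and antioxidant genes showed the same low value at 15 min in part, for 5 of 11 genes, against 3.57% of all genes. Hmox1, which breaks down heme, stood at 537, 50.6 and 751 CPM, 10.6-fold lower at 15 min (7.71 to 15.0). Mt1, a metallothionein, stood at 828, 332 and 927, and Sqstm1, an autophagy receptor, at 305, 91.9 and 336. Txnrd1 and Mt2 were the other 2. The ferritin chains Ftl1, at 7339, 5566 and 7650, and Fth1, at 10756, 8675 and 9243, stayed within 2-fold. None of the 11 was past 2-fold at 60 min.

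**Figure D4:**
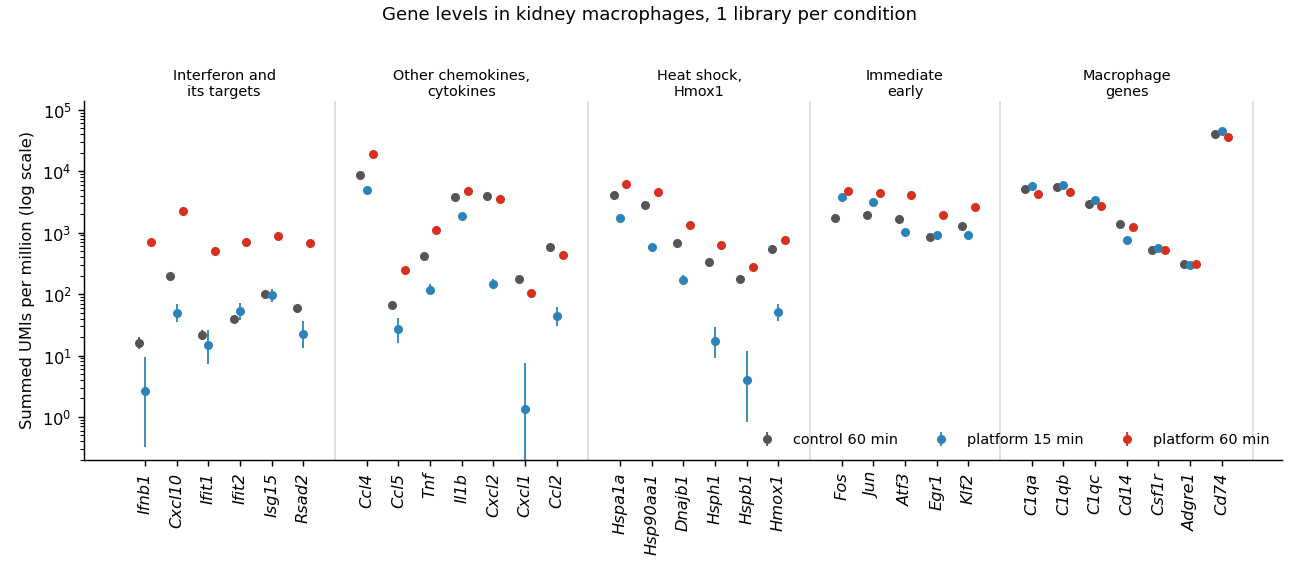
Levels of named genes in kidney macrophages in CPM (log scale), summed over the macrophages of each library; points are single libraries and lines exact Poisson 95% intervals for counting error. The interferon genes stand highest at 60 min, Cxcl2, Cxcl1, Ccl2, the heat shock genes and Hmox1 stand lowest at 15 min, and Csf1r and Adgre1 lie together.

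A few other lists held isolated members past 2-fold. Of all genes 2.33% were higher and 3.57% lower at 15 min than in the control, and 1.13% were higher at 60 min. Of 12 lipid handling genes 2 were higher at 60 min, Plin2, which coats lipid droplets, at 201, 166 and 515 CPM, and Fabp4, a fatty acid carrier also made by capillary endothelium, at 8.51, 9.32 and 66.0. Fabp4 passed the filter only through its 60 min value. It was found in 9.22% of macrophages at 60 min and 6.77% of proximal tubule cells, and 1 macrophage held 117 of its 595 UMIs. Without sub-clusters 5 to 8, described below, its log2 ratio to the control fell from 2.04 to 0.38, and with a pseudocount of 50 it was 0.99, both under 2-fold. Of 9 trophic genes 2 were lower at 15 min, Plau, the urokinase, at 169, 43.9 and 223, and Areg, a ligand of the EGF receptor, at 36.1, 0 and 34.0. Of 9 glycolysis genes Pfkfb3 alone was lower at 15 min, at 38.0, 12.0 and 43.9. Of 13 mitochondrial genes mt-Nd1 was past 2-fold higher at 15 min, at 3196, 6457 and 3622, and mt-Nd4l at 60 min, at 530, 931 and 1622. The list did not differ in these members alone. All 13 were above the control at 15 min, with a median log2 ratio of 0.88, and at 60 min, with a median of 0.39. The list summed to 69303, 127570 and 88915.5 CPM. Cell cycle genes were scarce, with 2 of 12 above the filter and none past 2-fold against the control. Of 6 monocyte genes above the filter Plac8 was higher at 15 min, at 4.53, 46.6 and 12.3, and Ccr2 stood at 132, 194 and 76.1.

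Besides Gadd45b, 4 genes were lower at 60 min than in the control. Acp5, the tartrate-resistant acid phosphatase, stood at 49.1, 30.6 and 13.6 CPM, and it was found in 18.6% to 35.7% of proximal tubule cells. Slfn2 stood at 385, 178 and 172, Map2k3, a kinase upstream of p38, at 86.6, 24.0 and 33.8, and the noncoding transcript AY036118 at 871, 687 and 333. Slfn2 and Map2k3 were low in both platform libraries.

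The macrophages were clustered without the lists of dissociation genes and of other cell type genes, which gave 9 sub-clusters of 39 to 635 cells. The dissociation lists were immediate early, heat shock, cytokine, chemokine, NF-kB, displayed stress and mitochondrial genes. Ifnb1 and the interferon list were not left out. Sub-cluster 1 was led by Ifnb1 and Ifit1 and sub-cluster 4 by Cxcl1 and Plaur, genes that differ between libraries. Where cell numbers of a sub-cluster are given by library, they are therefore a description only and not a measure of which macrophages were released. Sub-cluster 2 (560 cells) was led by Ccl8 and F13a1 and had Lyz2, which encodes lysozyme, at 12313 CPM against 2574 in the other macrophages. Sub-cluster 3 (522 cells) was led by Ccr2, at 257 against 57.8. Sub-cluster 5 (85 cells) was led by Kap, at 19770 against 591, and sub-cluster 7 (66 cells) by Fabp4 and Umod. Sub-clusters 6 and 8 were shallow, with median UMIs of 1689 and 2212. Csf1r was detected throughout, from 306 in sub-cluster 6 to 848 in sub-cluster 8.

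Within sub-clusters some differences at 15 min kept their direction, some were smaller and some turned. In sub-cluster 3, with 276, 81 and 165 cells in the control, 15 min and 60 min libraries, Cxcl10 stood at 96.8, 52.6 and 560 CPM. Cxcl2 there stood at 830, 198 and 473, Hsph1 at 229, 16.8 and 502, and Fos at 1591, 4121 and 3788. In sub-cluster 2, with 144, 18 and 398 cells, Cxcl2 stood at 1149, 169 and 2247 and Fos at 1951, 5365 and 4547. Cxcl2 and Hsph1 were thus lower and Fos higher at 15 min than in the control there, but the Cxcl2 difference was smaller than the 26.4-fold over all macrophages. Ccl4 turned, with 4262, 6181 and 8681 in sub-cluster 3 and 2129, 4919 and 6373 in sub-cluster 2, above the control at 15 min in both. Cd14 turned as well, with 604, 905 and 775 in sub-cluster 3 and 962, 1073 and 1179 in sub-cluster 2. Tnf in sub-cluster 3 stood at 174, 128 and 329. Sub-cluster 4, where control cells had Ccl4 at 17088 and Cxcl2 at 9235, held 231 control cells and none of the 15 min library. The part of sub-cluster make-up in the values over all macrophages was not tested. Ifnb1 in sub-cluster 3 stood at 1.01, 4.21 and 72.6, and in sub-cluster 2 it stood at 0, 0 and 167. In sub-cluster 4 it stood at 1.85 in the control and 208 in 113 cells at 60 min. Because Ifnb1 was not left out of the clustering, its levels within sub-clusters may depend in part on how the cells were grouped.

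The same genes were then read in other cells of the same libraries. Ifnb1 at 60 min stood at 2.07 CPM in 1404 endothelial cells, 2.38 in 464 T cells, 3.55 in 610 B cells and 1.13 in proximal tubule cells, against 706 in macrophages. In macrophages of the mammary tumor it stood at 4.72, 1.80 and 48.5. Tumor Cxcl10 stood at 139, 234 and 747, so both genes were highest at 60 min in macrophages of either tissue. Of 12 interferon genes above the filter in tumor macrophages 2 were past 2-fold higher at 60 min than in the control, where 1.10% of all genes were. Of 14 in kidney endothelium none was, where 0.241% of all genes were. Endothelial Cxcl10 went the other way, with 370, 0 and 71.6.

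Low heat shock levels at 15 min were not seen in macrophages alone. Hsph1 stood at 241, 15.0 and 244 CPM in kidney endothelial cells, in the order used above, at 221, 34.0 and 310 in T cells, and at 199, 31.9 and 302 in B cells. In proximal tubule cells it stood at 40.7, 34.8 and 73.2, and in tumor macrophages at 64.7, 33.0 and 242. The number of heat shock genes past 2-fold lower at 15 min was 9 of 13 in endothelium, 7 of 12 in T cells, 7 of 12 in B cells, 2 of 11 in proximal tubule and 2 of 13 in tumor macrophages. Of all genes above the filter in these cells 1.87%, 3.11%, 1.65%, 0.899% and 3.74% were that low, in the same order. Tumor Cxcl2 was lower at 15 min as well, with 6348, 1619 and 7667. Fos went different ways in the cell types at 15 min. It was above the control in macrophages of both tissues, with 895, 4473 and 2923 in the tumor, and in B cells, with 353, 915 and 614. In T cells it stood at 340, 350 and 466. It was below the control in endothelium, with 2285, 1100 and 2966, and in proximal tubule, with 134, 9.79 and 196. None of these differences between cell types was tested.

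**Figure D5:**
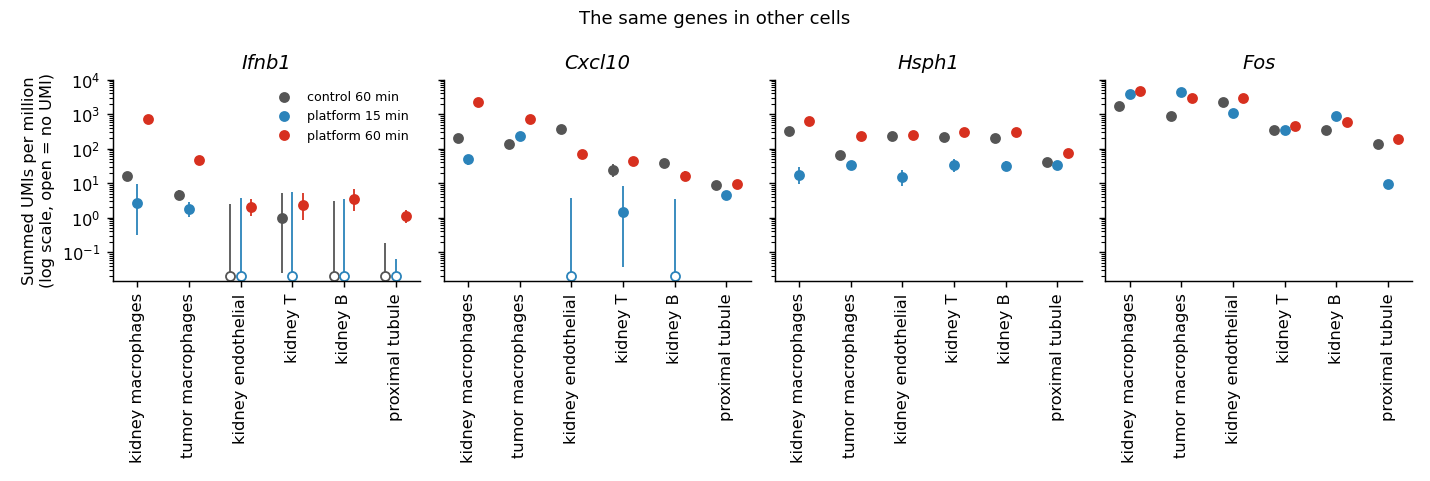
Levels of Ifnb1, Cxcl10, Hsph1 and Fos in CPM (log scale) in macrophages of kidney and tumor and in 4 other kidney cell types; points are single libraries, lines exact Poisson 95% intervals and open points no UMI. Ifnb1 reaches 706 in kidney macrophages and 48.5 in tumor macrophages at 60 min and at most 3.55 in the other cells.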

How the data were processed

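Counts of UMIs per gene and cell were used as deposited by the authors, who ran Cell Ranger 3.1.0 on mm10 per the submitters' processing notes and aggregated the libraries per tissue; aggregation levels the depth, so the original depth differences are partly lost. The aggregation file gave each cell's library. Cells were kept by the study's limits. UMIs were summed over the macrophages of a library and scaled to 1000000 (CPM; pseudocount 10, mean CPM of at least 20), with exact Poisson, binomial and conditional ratio intervals (Python 3.11.15, scipy 1.17.1). Sub-clusters came from scanpy 1.11.5 and leidenalg 0.10.2 (2000 variable genes, 15 components, 15 neighbours, resolution 0.4), and trimmed mean factors from edgeR 4.0.16. Scripts were tested on simulated data. The members and gene lists were chosen with earlier results of these data known. Named genes were, for each comparison, the 8 highest and 8 lowest ratios, list members past 2-fold, up to 4 abundant members of each list and the markers. Irf7, Mx1 and the perivascular genes at or near 0 were named after their values were seen. A few named genes are not reported here. Gene positions are GENCODE vM21 (31011 of 31053 IDs matched) and promoters RefSeq.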

Additional observations from a re-analysis of the deposited data

How the results depend on the processing

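No paired analysis was possible because each condition has 1 library, and no replicate could be left out for the same reason. With 132 macrophages at 15 min, depth limits the low genes most. Without globin-rich cells (20 or more globin UMIs) 47 genes in place of 51 were higher at 60 min than in the control. This setting and the one without sub-clusters 5 to 8 were chosen after seeing the data. Causes were not tested.

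Shares of macrophages in the control, 15 min and 60 min libraries moved to 10.9%, 1.34% and 11.5% with a lower limit of 200 genes only, to 16.8%, 2.63% and 17.5% with at most 20% mitochondrial UMIs, and to 12.7%, 1.20% and 12.6% without sub-clusters 5 to 8; after thinning, control and 60 min stood at 15.3% and 17.3%. Genes higher at 15 min than in the control, 105 as reported, numbered 199 with 200 genes only, 60 by the mean over cells, 257 thinned, 164 scaled without mitochondrial, ribosomal protein and proximal tubule genes, 23 without cells of 1% or more proximal tubule UMIs, 158 and 39 with pseudocounts of 1 and 50, 26 without sub-clusters 5 to 8, 51 with a filter of 50 and 181 without a filter. Genes lower at 15 min, 161, numbered 314 thinned and 75 with a pseudocount of 50. The 5 genes lower at 60 min than in the control became 9 thinned, 9 scaled as above, 8 with trimmed mean factors, 8 without dendritic, NK or B cell markers, 8 and 2 with pseudocounts of 1 and 50, 3 with a filter of 50 and 8 without one. Genes higher at 60 min than at 15 min, 223, numbered 396 thinned and 114 with a pseudocount of 50. Genes lower, 95, numbered 153 with 200 genes only, 52 by the mean over cells, 253 thinned, 173 scaled as above, 61 with trimmed mean factors, 24 without cells rich in proximal tubule UMIs, 185 and 32 with pseudocounts of 1 and 50, 36 without sub-clusters 5 to 8, 49 with a filter of 50 and 144 without one.

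The 8 immediate early genes higher at 60 min became 5 with 200 genes only. The 10 proximal tubule genes higher at 15 min became 1 without cells rich in them and 0 without sub-clusters 5 to 8. With a pseudocount of 50 the cytokine genes lower at 15 min became 4 and the iron and antioxidant genes 3. Resolution 0.8 gave 14 sub-clusters. Signs reversed at 15 min against the control for Slc27a2 (log2 ratio -0.27 without cells rich in proximal tubule UMIs, -0.59 without sub-clusters 5 to 8), Ifnb1 (0.24 without dendritic, NK or B cell markers) and Hbb-bs (-0.13 without globin-rich cells). Signs reversed at 60 min against 15 min for Slc27a2 (0.54 and 0.79 under the same 2 settings), Pck1 (0.21 and 0.0056), Gpx3 (0.017 and 0.20), Hbb-bs (0.39) and Hba-a1 (0.041), the last 2 without globin-rich cells. Of the named genes past 2-fold, 28 to 35 of 35 stayed past it at 60 min against the control, 56 to 78 of 78 at 15 min against the control, and 71 to 93 of 93 between the platform intervals.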

Other observations

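Sub-cluster 9, with 13 control cells, 26 cells of the 60 min platform and none of the 15 min library, was led by interferon-induced genes other than those of sub-cluster 1. Ifit3 stood there at 1759 CPM against 88.2 in the other macrophages, Mx1, an antiviral GTPase, at 646 against 24.3, and Cxcl9, a chemokine for T cells, at 1413 against 103. These genes chose the cells, so the values are a description. Ifnb1 in these cells stood at 37.1 in the control and 845 at 60 min.

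Between the control and 60 min 2 transcripts went past 2-fold the same way in each of 5 kidney cell types and stayed within 2-fold in tumor macrophages. AY036118, a noncoding transcript, stood in the control and at 60 min at 871 and 333 CPM in macrophages, 1088 and 397 in endothelium, 919 and 409 in T cells, 953 and 380 in B cells, and 681 and 311 in proximal tubule, but at 378 and 317 in tumor macrophages. mt-Nd4l, a mitochondrial subunit of complex I, stood at 530 and 1622 in kidney macrophages, 574 and 1847 in endothelium, 469 and 1624 in T cells, 559 and 2030 in B cells, and 1757 and 4293 in proximal tubule, but at 209 and 194 in tumor macrophages. At 15 min mt-Nd4l did not go one way, with 931 in macrophages, 467 in endothelium, 357 in T cells, 728 in B cells and 2324 in proximal tubule. Both were chosen after their values were seen, and the difference between tissues was not tested.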
